A study of Mus musculus with 11 samples.

Results

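The insulin and IGF signalling genes examined here were the receptor genes Insr and Igf1r, the adaptor genes Irs1 and Irs2, the transcription factor genes Foxo1 and Foxo3, and the binding protein genes Igfbp1, Igfbp2 and Igfbp4. They were taken by name from the liver tables, which makes 9 of 24063 genes listed. All 9 passed the filter on low counts that left 12581 genes for testing. RNA-seq was made from the livers of 5 PBS-injected and 6 A2M-injected mice, since the liver both makes and clears this protein. A2M here is the activated form (A2M*) of human alpha2-macroglobulin, a large plasma protein that traps proteinases and is taken up by the liver through the receptor LRP1. All animals carried the nude mutation on both alleles (strain label Cd1 nu/nu), so that they lack a thymus and most mature T cells but keep other immune cells. By the study's methods they were young adult males at grafting, carried human tumour cells under the skin and had free access to food. A2M was injected into the abdominal cavity several times a week, and the labels name PBS as the treatment of the controls. The sources do not tie the livers to one of the tumour lines, and the labels give neither age nor the time of day at which a liver was taken.

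Insulin and IGF-1 bind the receptors encoded by Insr and Igf1r, which phosphorylate the adaptors IRS1 and IRS2 and so switch on PI3K and AKT. AKT phosphorylates FOXO factors, which then leave the nucleus and stop driving their targets. In fasted liver FOXO1 is nuclear and raises glucose production genes, Irs2 and Igfbp1, while after a meal insulin shuts these genes down. The IGFBPs are secreted proteins that hold IGFs in the circulation and in tissue. Activity in this pathway is carried largely by phosphorylation, which RNA levels do not report.

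Start-site windows of 3 members are printed because each held a copy of the short insulin response motif known from Igfbp1. RefSeq windows (GRCm38.p6) of 300 bases, from 250 before to 50 after the annotated start, were found for 8 of the 9 genes, all but Insr. Capitals mark the insulin response motif (CAAAACA, or TGTTTTG where it lies on the opposite strand) and, in Irs1 and Irs2, the E-box CACGTG. The windows lie at chr11:7197537-7197836 (plus strand) for Igfbp1, chr1:82291390-82291689 (minus strand) for Irs1 and chr8:11008880-11009179 (minus strand) for Irs2.
Igfbp1: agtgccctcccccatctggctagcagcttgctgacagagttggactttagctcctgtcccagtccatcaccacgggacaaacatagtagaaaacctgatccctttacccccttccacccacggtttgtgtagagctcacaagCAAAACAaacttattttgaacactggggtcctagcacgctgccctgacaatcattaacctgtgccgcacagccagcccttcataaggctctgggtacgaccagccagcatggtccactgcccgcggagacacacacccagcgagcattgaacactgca
Irs1: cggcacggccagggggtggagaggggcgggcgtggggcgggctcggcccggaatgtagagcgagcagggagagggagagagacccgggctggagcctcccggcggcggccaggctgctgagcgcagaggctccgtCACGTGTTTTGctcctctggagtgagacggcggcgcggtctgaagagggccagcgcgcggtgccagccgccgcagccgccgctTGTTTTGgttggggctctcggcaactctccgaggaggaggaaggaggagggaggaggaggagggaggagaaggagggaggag
Irs2: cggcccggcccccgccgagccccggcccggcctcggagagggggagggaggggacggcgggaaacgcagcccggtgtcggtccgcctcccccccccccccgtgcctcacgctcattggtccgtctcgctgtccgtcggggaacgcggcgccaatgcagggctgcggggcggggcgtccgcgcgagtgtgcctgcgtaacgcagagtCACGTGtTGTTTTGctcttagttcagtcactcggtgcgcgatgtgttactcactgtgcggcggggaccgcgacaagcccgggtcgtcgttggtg

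In the Igfbp1 window the motif lay at bases -108 to -102 from the start, on the gene's own strand. The Irs1 window held the opposite-strand form at -111 to -105 and again at -32 to -26, and the first copy overlapped an E-box at -115 to -110. In the Irs2 window the opposite-strand form lay at -37 to -31, just after an E-box at -44 to -39. That window lies wholly upstream of Irs2 as GENCODE places it, on the minus strand from 10984681 to 11008458. The Irs2 distances therefore hold for the RefSeq start only. An E-box also stood at -142 to -137 in 1 of the 2 Igfbp2 windows. On both strands, the insulin response motif was in 6.28% and the E-box in 7.15% of 32851 mouse windows of this length, and the core FOXO motif GTAAACA, which none of the members' windows held, was in 3.65%. Among the 12096 windows of tested genes the shares were 4.52% for the insulin response motif, 9.85% for the E-box and 2.68% for the FOXO motif. These matches describe letters only and say nothing about what binds there.

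The PBS libraries held 31513210 to 46381692 counted reads and the A2M libraries 23545121 to 37357134. Hepatocyte markers such as Alb summed to 45850 to 72280 RPKM in PBS and 53160 to 64660 RPKM in A2M livers, so that every sample carried the expression of its labelled tissue. RPKM scales reads by exon length and library total, which allows levels of different genes to be set side by side. PBS replicate 2 stood apart: its 8 fat markers summed to 960.2 RPKM, against 4.67 to 20.9 in the other livers, and its 8 adrenal markers to 427.5 RPKM, against 2.26 to 12.5. It also had the highest stellate sum, 68.8 RPKM against at most 45.0. A2M replicate 1 had the highest Kupffer cell sum, 196.6 RPKM against at most 85.9 elsewhere, and PBS replicate 1 the highest cholangiocyte sum, 152.3 RPKM against at most 45.6. A clock score, the mean z of dusk-phased minus dawn-phased clock genes, was -2.63 to -0.40 in the PBS group and 0.61 to 1.77 in the A2M group, without overlap. The part of clock phase and of these other cell types in the results on the 9 genes was not tested. In RNA of whole liver, fewer cells of a type and less RNA per cell cannot be told apart.

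None of the 9 genes passed the test between A2M and PBS livers (edgeR quasi-likelihood test, adjusted p under 0.01 over all genes tested). Over all genes 27 passed, 10 higher and 17 lower in A2M livers, which is a background of 0.215%. At an unadjusted p under 0.05, 3 of the 9 did, Foxo3 and Igfbp4 on the higher side and Igfbp1 on the lower, against a background of 14.7% of all genes. DESeq2, run as an alternative, called none of the 9 at an adjusted p under 0.01, where it called 284 of 12368 genes, a background of 2.3%. At an adjusted p under 0.05 it called 1 of the 9, Igfbp4 (0.0351), against a background of 4.69%. The fitted log2 fold change was positive for 5 of the 9 and negative for 4, with a median of 0.07. Over all genes tested 48.9% were positive and the median was -0.01.

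**Figure D1:**
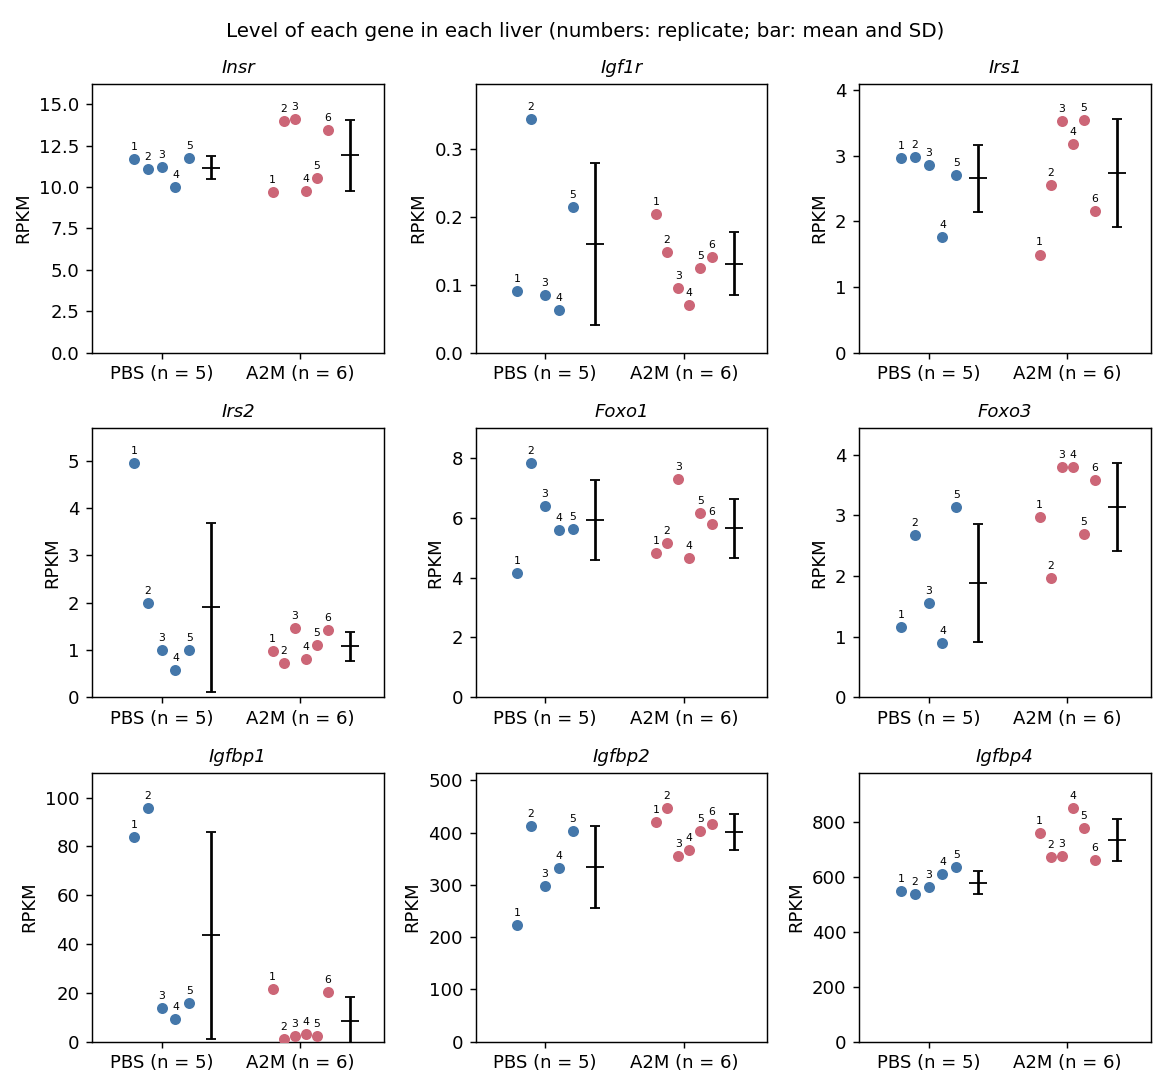
Level of each of the 9 genes in RPKM (vertical axes, each starting at 0) in the 5 PBS and 6 A2M livers. Points are single livers with their replicate number, bars are the mean and SD and are cut at 0 for Igfbp1. Igfbp4 is the only gene whose groups do not overlap, and Igfbp1 ranges from 1.26 to 95.8 RPKM.

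Per length of transcript, the levels of the 9 genes differed widely, and their order was partly fixed from liver to liver. Igfbp4 stood above Igfbp2, and Igfbp2 above all the others, in 11 of 11 livers. Insr exceeded Foxo1, and Foxo1 exceeded Irs1, in 11 of 11. Igf1r was the lowest of the 9 in every liver, below Irs2 by 4.59-fold or more. The neighbours Irs1 and Foxo3 had no fixed order, with Irs1 higher in 6 of 11 livers. Igfbp1 was above Insr in 6 of 11, namely each PBS liver except replicate 4 and A2M replicates 1 and 6.

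Of the receptors, Insr, the insulin receptor, was evenly expressed. It measured 11.7, 11.1, 11.2, 10.03 and 11.7 RPKM in PBS replicates 1 to 5, and from 9.68 through a median of 12.0 to 14.1 RPKM in A2M livers. The A2M livers lay on both sides of the narrow PBS range, with replicates 2, 3 and 6 above it and replicates 1 and 4 below it. Means were 11.2 ± 0.689 (SD, n = 5) and 11.9 ± 2.15 RPKM (SD, n = 6). The log2 fold change was 0.11 ± 0.12 (SE), with a 95% interval of -0.15 to 0.37 and an edgeR adjusted p of 0.728.

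Igf1r, the IGF-1 receptor, is known to be scarce in adult hepatocytes, and its levels here were low. PBS replicates 1 to 5 gave 0.0917, 0.345, 0.0848, 0.0630 and 0.215 RPKM. A2M livers ran from 0.0704 through a median of 0.133 to 0.205 RPKM. These rested on 24 to 161 reads per liver over 11978 bases of exon. The highest value was that of PBS replicate 2, the liver with fat and adrenal marker RNA. The log2 fold change of -0.23 ± 0.41 (SE; 95% interval -1.12 to 0.65, edgeR adjusted p 0.850) turned to 0.20 without that liver. Insr exceeded Igf1r by 32.2 to 159.1-fold in PBS and 47.3 to 147.1-fold in A2M livers.

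Irs1, the adaptor that insulin and IGF-1 receptors share in most tissues, had 2.96, 2.98, 2.86, 1.77 and 2.70 RPKM in PBS replicates 1 to 5. In A2M livers it ran from 1.49 through a median of 2.86 to 3.54 RPKM. PBS replicate 4 lay below the other 4 PBS livers, while the A2M range enclosed the whole PBS range. The means of 2.65 ± 0.508 (SD, n = 5) and 2.74 ± 0.821 RPKM (SD, n = 6) gave a log2 fold change of 0.07 ± 0.20 (SE; 95% interval -0.36 to 0.50, edgeR adjusted p 0.920). Its direction turned without PBS replicate 4 (-0.03) and without A2M replicate 3 or 5 (-0.0024 and -0.02). Exons of Irs1 overlap those of Gm9747 on the opposite strand over 2822 bases, and the library kit keeps no strand, so that reads from this stretch cannot be told apart. Gm9747 was not among the genes counted, so its own level here is unknown.

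Irs2, the adaptor that FOXO factors raise in fasted liver, varied far more than Irs1 among PBS livers. PBS replicates 1 to 5 had 4.95, 1.997, 1.01, 0.564 and 0.989 RPKM. A2M livers had 0.720 to 1.46 RPKM with a median of 1.04. Replicates 1 and 2 of the PBS group lay above every A2M liver and the other PBS livers lay within or below the A2M range. The means were 1.90 ± 1.78 (SD, n = 5) and 1.08 ± 0.304 RPKM (SD, n = 6), and the log2 fold change was -0.76 ± 0.44 (SE; 95% interval -1.70 to 0.18, edgeR adjusted p 0.459). It shrank to -0.04 without PBS replicate 1. In that liver Irs2 exceeded Irs1 by 1.67-fold, whereas the ratio was at most 0.670 in each of the others. Irs2 shares 162 bases of exon with 9530052E02Rik on the opposite strand, a gene with 0 to 4 reads per liver.

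Foxo1, the main FOXO factor of hepatocytes in insulin's control of glucose production, had 4.16, 7.84, 6.42, 5.59 and 5.65 RPKM in PBS replicates 1 to 5. A2M livers had 4.65 to 7.32 RPKM with a median of 5.48, all inside the PBS range. Means of 5.93 ± 1.34 (SD, n = 5) and 5.66 ± 1.00 RPKM (SD, n = 6) gave a log2 fold change of -0.05 ± 0.15 (SE; 95% interval -0.38 to 0.27, edgeR adjusted p 0.918). It was 0.02 without PBS replicate 2, the liver with the highest Foxo1. The antisense transcript Gm20402 overlaps 674 bases of its exons and was not among the genes counted.

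Foxo3, a related factor that in liver acts partly alongside FOXO1, had 1.16, 2.68, 1.55, 0.896 and 3.14 RPKM in PBS replicates 1 to 5. In A2M livers it ran from 1.97 through a median of 3.27 to 3.79 RPKM. PBS replicates 1, 3 and 4 lay below every A2M liver, and PBS replicates 2 and 5 lay within the A2M range. Means were 1.88 ± 0.977 (SD, n = 5) and 3.13 ± 0.727 RPKM (SD, n = 6). The log2 fold change of 0.76 ± 0.29 (SE), or 1.70-fold, had a 95% interval of 0.14 to 1.39 and did not pass the adjustment (edgeR, unadjusted p 0.0206, adjusted p 0.232). Leaving out single livers moved it between 0.60 and 1.04. Foxo1 exceeded Foxo3 in every liver, by a median of 3.59-fold in PBS and 1.78-fold in A2M livers, with ranges of 1.8 to 6.24 and 1.23 to 2.62 that overlapped.

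Igfbp1, secreted by hepatocytes and strongly lowered by insulin, was the most variable of the 9. PBS replicates 1 to 5 had 83.7, 95.8, 13.6, 9.28 and 15.7 RPKM. A2M livers had 1.26 to 21.6 RPKM with a median of 2.69. The values fell into 3 levels: PBS replicates 1 and 2 were highest, PBS replicates 3 to 5 and A2M replicates 1 and 6 lay between 9.28 and 21.6 RPKM, and A2M replicates 2 to 5 lay at or below 2.94 RPKM. The groups thus overlapped through A2M replicates 1 and 6, which stood 6.87-fold or more above the other 4 A2M livers. The same 2 livers had the highest lymphocyte marker sums, 7.89 and 5.63 RPKM against at most 3.07 in the others. They also had the highest Kupffer cell sums, 196.6 and 85.9 RPKM, but 85.9 lay close to the 80.4 of PBS replicate 5. PBS replicates 1 and 2, the highest in Igfbp1, came next in lymphocyte marker sums, at 3.07 and 2.94 RPKM. The remaining livers had at most 1.78 RPKM. The Kupffer cell sums of PBS replicates 1 and 2 were 66.4 and 43.9 RPKM. Igfbp1 means were 43.6 ± 42.4 (SD, n = 5) and 8.45 ± 9.65 RPKM (SD, n = 6).

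The log2 fold change of Igfbp1 was -2.28 ± 0.83 (SE), or 4.85-fold lower in A2M livers, the largest in size of the 9. Its 95% interval ran from -4.06 to -0.49, and it did not pass the adjustment (edgeR, unadjusted p 0.0162, adjusted p 0.211). Without PBS replicate 2 it was -1.81, and without A2M replicate 1 it was -2.81 with an adjusted p of 0.132. Reads per liver ranged from 45 to 5671, and counting error is small beside the 76.2-fold range between livers. Its within-group SD on the log2 scale, 1.63, was at percentile 99.7 of all genes tested, whose median was 0.258. Both PBS livers with the highest Igfbp1 also stood apart in marker sums. PBS replicate 2 had the highest fat and adrenal sums, and PBS replicate 1 had the highest cholangiocyte sum (152.3 RPKM) and the second-highest fat sum (20.9 RPKM, against at most 7.91 in the other 9 livers). The part of these markers, or of the lymphocyte and Kupffer cell markers, in the Igfbp1 levels was not tested.

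**Figure D2:**
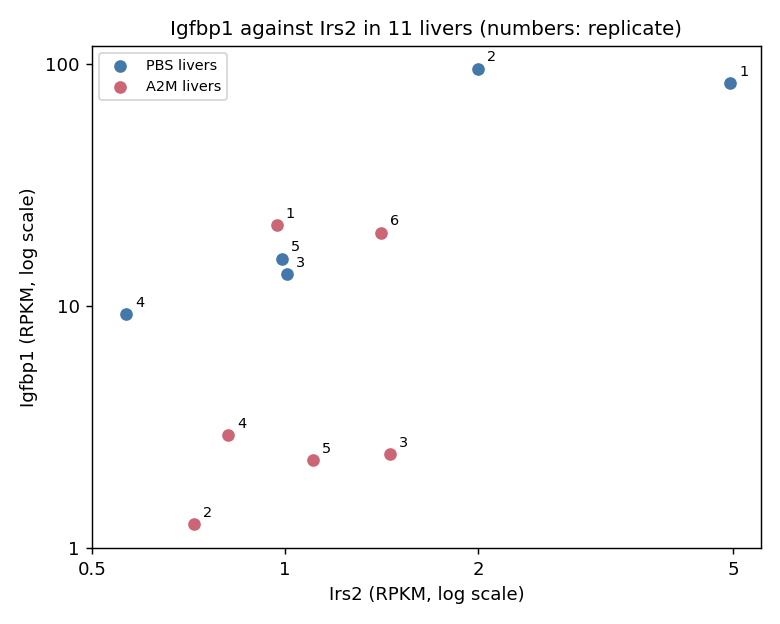
Igfbp1 level against Irs2 level (both in RPKM, log axes) in each of 11 livers, with replicate numbers. PBS replicates 1 and 2 are highest on both axes, and A2M replicates 2 to 5 are lowest in Igfbp1 across an Irs2 range of 0.720 to 1.46 RPKM.

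Igfbp1 and Irs2, both FOXO targets of fasted liver, shared their high livers. Across the 11 livers the correlation of their log2 CPM was 0.62, the highest of all pairs among the 9 genes, and 0.61 after the group means were taken out. It was 0.88 within PBS and 0.40 within A2M livers. The lowest were Irs2 with Igfbp2, -0.73, Igfbp1 with Igfbp4, -0.72, and Irs2 with Igfbp4, -0.63. After the group means were taken out these were -0.72, -0.46 and -0.68. These correlations are descriptions over libraries whose depth and makeup the genes of each pair share. PBS replicates 1 and 2 were the highest in both Igfbp1 and Irs2. Apart from the values within A2M livers, such as the 0.40 above, no correlation was computed without them.

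Igfbp2, made by hepatocytes and circulating at high levels, had 222.3, 412.7, 298.1, 333.0 and 402.6 RPKM in PBS replicates 1 to 5. A2M livers had 354.2 to 447.5 RPKM with a median of 409.7. PBS replicates 1, 3 and 4 lay below every A2M liver, while replicates 2 and 5 lay inside the A2M range. Means of 333.7 ± 78.5 (SD, n = 5) and 401.3 ± 35.1 RPKM (SD, n = 6) gave a log2 fold change of 0.28 ± 0.15 (SE; 95% interval -0.04 to 0.61, edgeR adjusted p 0.425). It was 0.16 without PBS replicate 1. Igfbp1 amounted to 0.0279 to 0.377 of Igfbp2 in PBS livers and to 0.00281 to 0.0514 in A2M livers.

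Igfbp4, a binding protein that the proteinase PAPP-A cleaves to free IGFs, was the most abundant of the 9 and had the smallest p. PBS replicates 1 to 5 had 548.5, 539.1, 563.4, 609.2 and 635.8 RPKM. A2M livers had 662.7 to 852.4 RPKM with a median of 719.4. Every A2M liver was above every PBS liver in RPKM, which 2.27% of all genes tested also showed in one direction or the other. On the TMM-scaled CPM of the fit the groups overlapped, as for the other 8 genes, against 2.59% of all genes without overlap. Means were 579.2 ± 41.6 (SD, n = 5) and 734.2 ± 75.6 RPKM (SD, n = 6). The log2 fold change was 0.35 ± 0.11 (SE), or 1.28-fold, with a 95% interval of 0.11 to 0.60, and it did not pass the adjustment (edgeR, unadjusted p 0.00845, adjusted p 0.155). It ranked 686th by p among all genes, and stayed between 0.29 and 0.40 when single livers were left out.

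**Figure D3:**
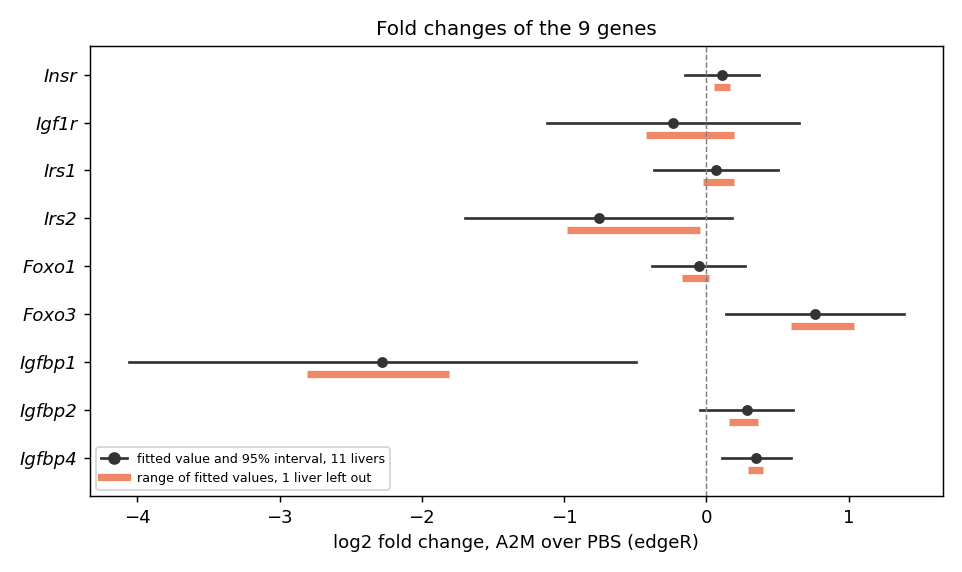
Fitted log2 fold change, A2M over PBS, of the 9 genes (points) with 95% intervals (thin lines) and the range of the fitted values when each liver is left out in turn (thick bars). The intervals of Foxo3, Igfbp1 and Igfbp4 do not reach 0, at 0.76, -2.28 and 0.35, and the leave-one-out bars of Igf1r, Irs1 and Foxo1 cross 0.

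The spread between livers of the same group separated the 9 genes. Beside Igfbp1, the SD of log2 CPM within groups stood at percentile 95 of all genes for Irs2, 93.1 for Igf1r and 84.8 for Foxo3. Irs1 was at percentile 72.7, Foxo1 at 54.7 and Igfbp2 at 53.6. Insr and Igfbp4 were the steadiest of the 9, at percentiles 33.4 and 18.5.

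Of the 7 Igfbp genes in the tables, Igfbp4 and Igfbp2 made up most of the summed RPKM. Igfbp4 took 59.1% on average in PBS and 62.6% in A2M livers, and Igfbp2 33.5% and 34.3%. Igfbp1 took 4.43% in PBS livers, with a range of 0.951 to 9.54%, and 0.719% in A2M livers, with a range of 0.110 to 1.79%. The stromal and endothelial gene Igfbp7 took 2.20% and 1.89%. Igfbp3, Igfbp5 and Igfbp6 each stayed under 1% in every liver.

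**Figure D4:**
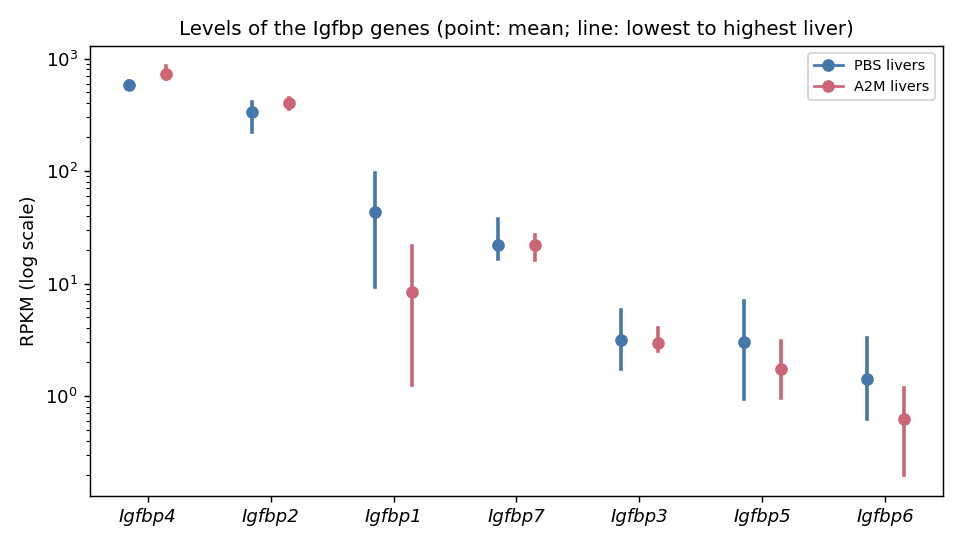
RPKM of the 7 Igfbp genes (log axis) in PBS and A2M livers, points for group means and lines from the lowest to the highest liver. Igfbp4 and Igfbp2 lie above 200 RPKM in every liver, and Igfbp1 has the longest lines, 9.28 to 95.8 RPKM in PBS and 1.26 to 21.6 RPKM in A2M livers.

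Igfbp1 and Igfbp2 each have another Igfbp gene beside them in the genome. In GENCODE (GRCm38) Igfbp1 lies on the plus strand of chromosome 11 at 7197782 to 7202546, next to Igfbp3 on the minus strand at 7206086 to 7213923. Igfbp3, the main carrier of IGF-1 in plasma, had 3.16 ± 1.69 (SD, n = 5) and 2.97 ± 0.573 RPKM (SD, n = 6) in PBS and A2M livers (log2 fold change -0.06 ± 0.27, SE, edgeR adjusted p 0.955, turning to 0.23 without PBS replicate 2). Igfbp2 lies on the plus strand of chromosome 1 at 72824503 to 72852474, next to Igfbp5 on the minus strand at 72857932 to 72874884. Igfbp5 had 3.01 ± 2.41 (SD, n = 5) and 1.75 ± 0.841 RPKM (SD, n = 6). Igfbp5 thus had a log2 fold change of -0.75 ± 0.44 (SE, edgeR adjusted p 0.468), and of -0.25 without PBS replicate 2. The other members are at chr8:3122061-3279617 (Insr, minus strand), chr7:67952827-68233668 (Igf1r, plus), chr1:82233101-82291416 (Irs1, minus), chr8:10984681-11008458 (Irs2, minus), chr3:52268336-52353221 (Foxo1, plus), chr10:42181841-42276755 (Foxo3, minus) and chr11:99041244-99054392 (Igfbp4, plus).

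Among the ligands and close relatives, 8 of 15 listed genes passed the filter and none passed the test. Igf1, the growth factor that liver supplies to plasma, had 73.6 ± 14.8 (SD, n = 5) and 73.4 ± 4.33 RPKM (SD, n = 6). For Igf1 this made a log2 fold change of 0.00 ± 0.14 (SE, 95% interval -0.29 to 0.30, edgeR adjusted p 0.993). Igfals, the acid-labile subunit of the plasma IGF complex, had 61.2 ± 6.05 and 64.4 ± 13.0 RPKM. Igf2r, which clears IGF-2, had 3.995 ± 0.533 and 4.11 ± 0.493 RPKM, and Foxo4 9.08 ± 1.03 and 9.19 ± 1.31 RPKM. Igfbp7 had 22.0 ± 8.69 and 22.1 ± 3.58 RPKM. Igfbp6 had the smallest p of these genes, at 1.43 ± 1.09 and 0.629 ± 0.334 RPKM. Its log2 fold change of -1.14 ± 0.46 (SE, edgeR unadjusted p 0.0284, adjusted p 0.269) was -0.66 without PBS replicate 2, the liver with the highest fat, adrenal and stellate marker sums.

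The other 7 listed genes were at or near 0 reads and were not tested. Ins1, Ins2 and the adaptor gene Irs4 had 0 reads in all 11 livers. Igf2, a fetal liver product, had 3 to 90 reads per liver. Irs3 had 47 reads over the PBS and 13 over the A2M livers, the receptor relative Insrr 17 and 1, and Foxo6 3 and 0.

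Downstream of the receptors, 38 of 39 listed insulin signalling genes were tested and none passed, with 20 positive and 18 negative fold changes and a median of 0.02. The 3 with the smallest p were Sh2b1, an adaptor that supports receptor signalling, Inpp5k, a phosphatase that acts against PI3K, and Akt2, the main insulin-driven AKT of liver. Sh2b1 had 11.0 ± 1.501 (SD, n = 5) and 9.23 ± 0.630 RPKM (SD, n = 6), a log2 fold change of -0.24 ± 0.08 (SE, edgeR adjusted p 0.205). Inpp5k had 5.00 ± 0.513 and 3.95 ± 0.752 RPKM, a log2 fold change of -0.32 ± 0.13 (SE, edgeR adjusted p 0.258). Akt2 had 32.4 ± 4.39 and 37.7 ± 3.35 RPKM, a log2 fold change of 0.24 ± 0.10 (SE, edgeR adjusted p 0.266).

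Of 33 FOXO target genes tested, none rose and 2 fell, against the background of 0.215% over all genes. Fold changes were positive for 15 and negative for 18, with a median of -0.05. G6pc, which encodes the last enzyme of glucose production, had 330.3, 303.2, 144.4, 91.3 and 177.0 RPKM in PBS replicates 1 to 5 and 18.1 to 64.5 RPKM in A2M livers. The groups did not overlap, and PBS replicates 1 and 2 were the highest here as they were in Igfbp1 and Irs2. It fell by 2.37 ± 0.33 (SE) on the log2 scale, with an edgeR adjusted p of 0.00632. The call was lost in 12 of 19 alternatives, which include leaving out any 1 liver except PBS replicate 4 or A2M replicate 1, with adjusted p values up to 0.0206. The log2 fold change stayed between -2.57 and -2.16 in all 19.

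Cdkn1a, the cell cycle inhibitor p21, fell from 10.9 ± 3.40 (SD, n = 5) to 0.827 ± 0.711 RPKM (SD, n = 6), a log2 fold change of -3.69 ± 0.43 (SE, edgeR adjusted p 0.00201). The study discusses Cdkn1a for these livers, so it is not independent evidence on the list. The RPKM means that the study printed for Cdkn1a are not those of all 11 livers. They match PBS replicates 1, 3, 4 and 5 and A2M replicates 2 to 5. An opposite-strand transcript overlaps 273 bases of Cdkn1a exons. Bnip3, a mitophagy gene, had the next smallest p, with 69.1 ± 8.95 and 104.4 ± 8.68 RPKM, a log2 fold change of 0.61 ± 0.11 (SE, edgeR adjusted p 0.0229). Its exons overlap an antisense transcript over 504 bases. Pck1, the other well-known glucose production gene of the list, had a log2 fold change of -0.29 ± 0.22 (SE, edgeR adjusted p 0.588) and was named after its value was seen, as the counterpart of G6pc.

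Among 20 genes that insulin raises in liver, mostly lipid synthesis genes, none passed the test. Fold changes were positive for 14 and negative for 6, or 70% positive beside 48.9% over all genes tested. Their median was 0.25, beside -0.01 over all genes. At an unadjusted p under 0.05 (edgeR), 7 were higher and 2 lower, beside 803 higher and 1047 lower of all 12581 genes tested. The smallest p values included those of the desaturase genes Fads2 and Fads1. Fads2 had 91.9 ± 24.7 (SD, n = 5) and 162.5 ± 25.3 RPKM (SD, n = 6), a log2 fold change of 0.84 ± 0.16 (SE, edgeR adjusted p 0.0274). Fads1 had 122.3 ± 10.9 and 158.9 ± 17.6 RPKM, a log2 fold change of 0.39 ± 0.10 (SE, edgeR adjusted p 0.0873).

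For each of the 9 genes the 3 genes most like it were taken by Pearson correlation of log2 CPM over the 11 livers, among 11169 genes. They were Bag4, Cdc40 and Rabgap1l for Insr (0.93 to 0.91), Atp8a1, Tmem88 and Fbn1 for Igf1r (0.90 to 0.88), and Trappc2, Peli2 and Akap1 for Irs1 (0.93 to 0.92). Irs2 was followed most closely by Srgap2, Capn5 and Gfod1 (0.94 to 0.90), Foxo1 by Tm2d1, Yipf4 and Smim15 (0.85 to 0.82), and Foxo3 by Ndel1, Ago2 and Nkd1 (0.93 to 0.89). Igfbp1 had Cacna1a, Irf2bp2 and Thbs2 (0.92 to 0.90), and Igfbp2 had Arhgap26, Mknk2 and Cyp2g1 (0.91 to 0.87). The highest values were those of Igfbp4, with E130012A19Rik, Aqp11 and Slc9a3r1 at 0.97 to 0.95. None of these lists held another of the 9 genes, and correlations of this size are the top of a search over many genes in few livers.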

How the data were processed

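RNA was measured in 11 mouse livers, grouped by the treatment label. Per the labels and the study's methods, the authors prepared libraries with a TruSeq RNA v2 kit, which keeps no strand, extracted reads with bcl2fastq 1.8.4, mapped them to mm10 with TopHat2 and counted them per RefSeq gene with featureCounts. The counting options were not given in the sources used here. The deposited counts are raw whole numbers. RPM values, also deposited, equal these counts scaled to a common library total, checked within a tolerance of 1e-06. The authors made the deposited RPKM values from the exon lengths of featureCounts.

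The counts were tested with edgeR 4.0.16 in R 4.3.3 (TMM, filterByExpr by group, quasi-likelihood F-test, Benjamini-Hochberg adjustment over all genes tested, threshold 0.01), without covariates. The study also cut at 0.01 but by another rule, which required a gene to pass in both edgeR and DESeq. Its printed Cdkn1a means also match fewer livers than were used here. Positive log2 fold changes mean higher in A2M livers and are given with a standard error and a 95% interval. Levels are given in the authors' RPKM, averaged per group with the SD. The statistics were tested on simulated data. Replicate numbers are names in order of deposit and pair no samples. No libraries were alike within sampling noise (smallest chi-square per degree of freedom 34.7). Each liver is taken as 1 mouse, which the labels do not state, and p-values set the group difference against the spread between these samples.

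The 9 genes, the gene lists and the tests were chosen with earlier results of these data known. The genes named were the 9, their family list, the genes past the threshold and the 3 smallest p values of the insulin signalling, FOXO target and insulin-raised lists, and for each of the 9 the 3 genes with the highest correlation of log2 CPM (prior count 2) among genes with a mean CPM of at least 1. A gene that this rule picks is not reported here. Alternatives were RLE size factors, library totals, testing without the low-count filter, robust dispersion estimates, DESeq2 1.42.0, an edgeR exact test together with DESeq2, an adjusted p under 0.05, limma 3.58.1 on log2(RPKM + 0.1) and log2(RPKM + 1), and each liver left out in turn. A fit without both PBS replicate 2 and A2M replicate 1 was chosen after seeing the data. Positions are from GENCODE vM21 (GRCm38) and sequences from RefSeq (GRCm38.p6).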

Additional observations from a re-analysis of the deposited data

Results flagged for a closer look

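The Irs1 level of PBS replicate 4, 1.77 RPKM, lay far below the other 4 PBS livers, which had 2.70 to 2.98 RPKM. The gap to the nearest of them was 0.767 of the range of the group. It was the 1 such value among 18 sets of livers examined, the 9 genes in each of the 2 groups, and chance alone is known to mark about 1 set in 20.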

How the results depend on the processing

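Under every alternative run, none of the 9 genes passed the threshold, and Insr, Irs2, Foxo3, Igfbp1, Igfbp2 and Igfbp4 kept their direction. The study's printed Cdkn1a means match PBS replicates 1, 3, 4 and 5 and A2M replicates 2 to 5, and no fit was run on that set. In it Igfbp1 was 9.28 to 83.7 RPKM in PBS and 1.26 to 2.94 RPKM in A2M livers, which was not tested. The 27 genes called overall became 284 with DESeq2, 188 with the exact test and DESeq2 together, 154 at an adjusted p under 0.05 and 10 without PBS replicate 2 and A2M replicate 1, and ran from 6 to 35 with single livers left out. Omitting PBS livers gave 7, 7, 6, 17 and 18 calls for replicates 1 to 5, and omitting A2M livers 17, 8, 6, 14, 8 and 35 for replicates 1 to 6. The 10 higher and 17 lower calls became 5 and 15 with library totals. The 2 list genes called became 5 with DESeq2, 4 with both tools together and at an adjusted p under 0.05, and 1 with either limma fit or without the same pair of livers (1 to 2 with single livers left out). The genes whose direction reversed had log2 fold changes between -0.23 and 0.09 with all livers. With single livers left out, Igf1r ran from -0.43 to 0.20, Irs1 from -0.026 to 0.20, Foxo1 from -0.17 to 0.020, Igf1 from -0.073 to 0.16, Igfals from -0.0042 to 0.16, Foxo4 from -0.012 to 0.084, Igfbp3 from -0.21 to 0.23 and Igfbp7 from -0.025 to 0.26. With both named livers left out, Igf1r was 0.030, Foxo1 0.069, Igf1 -0.018 and Igfbp3 0.27. Igf1 was -0.0054 with library totals and -0.0015 without the filter, and Igfbp3 was 0.039 and 0.0086 with limma at pseudocounts of 0.1 and 1. The cause of these changes was not tested. Igf1r rested on 24 to 161 reads per liver. No paired analysis was possible because the labels give the livers no shared replicate numbers.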
